A study of Arabidopsis thaliana with 9 samples.

Results

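In Arabidopsis thaliana root cells sorted as those of the quiescent centre (QC), 125 of 21430 measured loci had a lower level after 4 h of dexamethasone while staying near the mock level at 1 h. A locus was taken when its mean log2 level at 4 h lay at least 0.8 below the mock mean, when its highest 4 h array lay below its lowest mock array, and when its 1 h mean lay within 0.3 of the mock mean. In all, 231 loci were lower by 0.8 or more, 211 of these had arrays that did not overlap, and 131 of those lay within 0.3 at 1 h. A list of 11 loci was left out, 6 of which had met the values. Because the mock, 1 h and 4 h levels chose these genes, their differences between the groups are descriptions. Counts of these genes called by the model over all loci are given once per contrast beside the share of all loci, and nothing is read from them. A gene symbol was found for 63 of the 125, and the other 62 are given by locus.

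All plants were plt1 plt2 double mutants that carried a complementing PLT2-GR fusion (PLT2 joined to the glucocorticoid receptor) driven by the PLT2 promoter, and a WOX5::erGFP reporter for sorting. Seedlings 5 days old were put on 10 µM dexamethasone in DMSO for 1 h or 4 h, or on DMSO alone for 1 h (mock), and GFP-bearing protoplasts of the root tips were then sorted. Each of the 3 groups had 3 arrays, which the labels call biological replicates. A 4 h mock and a dexamethasone control lacking the fusion were not part of the arrays, so time on the plates, the steroid and PLT2-GR cannot be told apart in the 4 h values. The fusion is transcribed only where the PLT2 promoter is active.

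PLT2 is an AP2-type transcription factor of the root meristem. Its high level near the QC goes with stem cell identity, intermediate levels with division, and low levels permit cell expansion and differentiation. Fusion to the glucocorticoid receptor holds a protein in the cytoplasm until dexamethasone lets it enter the nucleus.

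The sorting reporter's own gene, WOX5, was not analysed here. The QC marker AGL42 averaged 2.88 (log2) in mock, under the arrays' first quartiles (3.55 to 3.63), and the niche regulator SCR averaged 8.55. Arrays of the 4 h group were spread more widely than the others: the median SD over all loci was 0.145 at 4 h and 0.10 in mock. On replicate 1 at 4 h the added poly-A control RNAs averaged 8.76 (log2), while the other 8 arrays had averages of 6.02 to 6.57. In RNA from sorted cells, fewer cells of a type and less RNA per cell cannot be told apart.

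Relative to mock, the 125 genes differed at 4 h by -1.70 to -0.80 log2 units, with a median of -0.95, which is 1.74-fold to 3.26-fold lower with a median of 1.93-fold. The median over all loci was 0.01. Falls of at least 1 log2 unit were found for 98 loci in all, and 50 of them were among the 125. Rises of that size were not counted. The standard error of a single difference lay between 0.08 and 0.37, with a median of 0.21. In the limma model over all loci, 114 of the 125 passed an adjusted p of 0.05 for 4 h against mock, where 5.23% of all loci were called down and 10.8% in either direction. Absence of overlap with mock was required by the choice, and 13.4% of all loci had every 4 h array below every mock array. This contrast chose the genes.

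**Figure D1:**
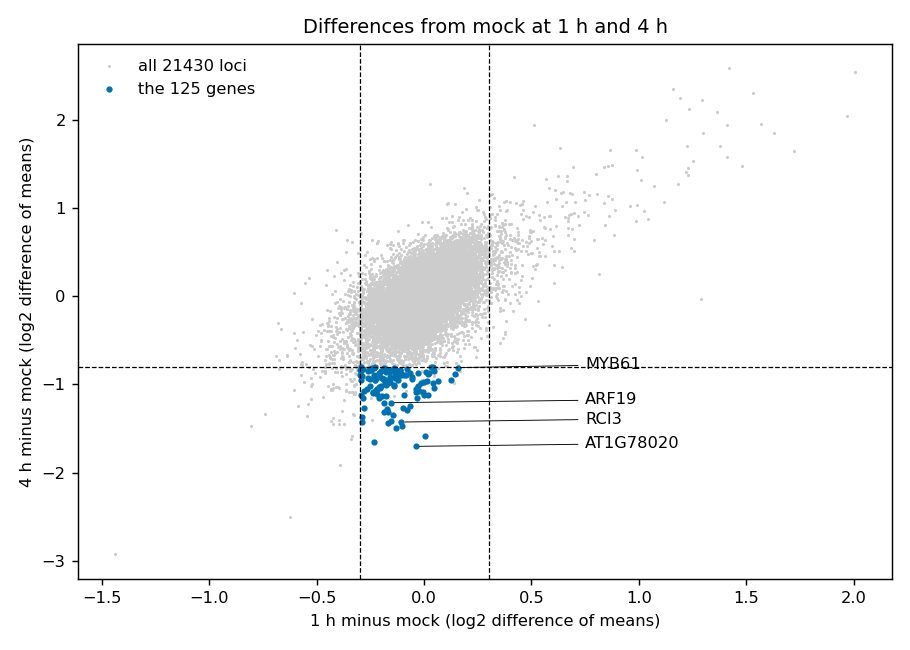
Each point is a locus, with its 1 h minus mock difference on the x axis and its 4 h minus mock difference on the y axis (log2 differences of group means, n = 3 arrays each). Blue points are the 125 genes, dashed lines are the limits at 0.3 and -0.8, and 4 genes are named between MYB61 at -0.81 and AT1G78020 at -1.70.

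The choice depended on single arrays. Without 4 h replicate 1, 72 loci met the same limits, 66 of them among the 125. Leaving out 4 h replicate 3 instead gave 341 loci, 124 of them among the 125. The number of the 125 called at 4 h against mock was 70 without 4 h replicate 1, 68 without 4 h replicate 2, and 73, 50 and 62 without mock replicates 1, 2 and 3. It was 125 without 4 h replicate 3. The share of all loci called in either direction moved alongside, from 10.8% with all arrays. It was 5.64% and 5.55% without 4 h replicates 1 and 2, and 19.4% without 4 h replicate 3. Without mock replicates 1, 2 and 3 the share was 5.71%, 3.21% and 4.18%.

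The arrays of the 4 h group did not lie alike. Taken array by array against the mock mean, the median of the 125 genes was -1.25 on 4 h replicate 1, -1.19 on replicate 2 and -0.55 on replicate 3. On replicates 1 and 2, 118 and 113 genes were lower by 0.8 or more, and on replicate 3 only 18 were. Replicate 3 was the highest of the 4 h arrays for 111 of the 125 genes, whereas it was the highest for 35.6% of all loci. Every gene was below its mock mean on every 4 h array, as the choice required. The smallest differences were thus on replicate 3, while the high poly-A controls were on replicate 1. Whether those controls bear on the values was not tested.

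**Figure D2:**
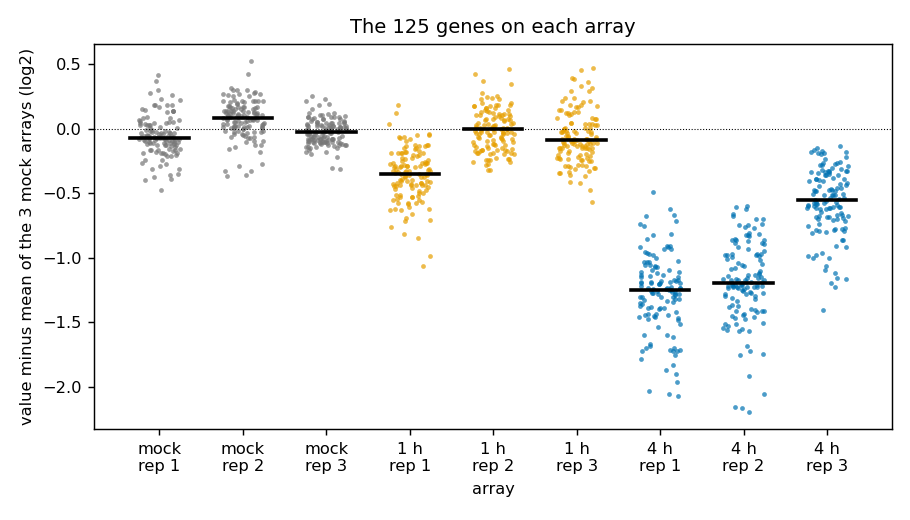
The 125 genes on each of the 9 arrays, as the log2 value minus the mean of the 3 mock arrays for that gene (y axis); points are genes and bars are medians. Medians of the mock arrays lie between -0.07 and 0.09, and those of the 4 h arrays at -1.25, -1.19 and -0.55.

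At 1 h the genes lay close to mock because they were chosen so. Their differences from mock ranged from -0.30 to 0.16 with a median of -0.16, and 109 of the 125 means were below mock, as were 52.5% of all loci. The mock arrays entered the choice and also this difference, so the side on which the 1 h means lay is no separate result. limma called 0 of the 125 for 1 h against mock, where 0.187% of all loci were called and 0.00933% called down. At an unadjusted p under 0.05 there were 4 of the 125, against 4.34% of all loci. A fit of only the 2 groups compared, which leaves out the wider spread at 4 h, gave 19 of the 125. The share of all loci at an unadjusted p under 0.05 was not counted in that fit. Ranges at 1 h and in mock overlapped for 102 genes, and the other 23 had every 1 h array below every mock array, as 5.4% of all loci did. Array by array against the mock mean, the median of the 125 was -0.35 on 1 h replicate 1, -0.004 on replicate 2 and -0.09 on replicate 3, and replicate 1 was the lowest 1 h array for 107 of the 125 genes and for 37.9% of all loci.

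Against the 1 h arrays, the differences at 4 h were -1.66 to -0.51, with a median of -0.83. Every 4 h array lay below every 1 h array for 86 of the 125, and for 10.1% of all loci. limma called 45 of the 125 for 4 h against 1 h, where 1.85% of all loci were called and 0.966% called down; this contrast too is fixed by the choice. That count moved with every array: it was 8, 6 and 120 without 4 h replicates 1, 2 and 3, was 6, 1 and 1 without 1 h replicates 1, 2 and 3, and was 8, 13 and 5 without mock replicates 1, 2 and 3. In the same order, the share of all loci called moved alongside. It was 0.14%, 0.14% and 13.1% for the 4 h arrays, 0.098%, 0.014% and 0.014% for the 1 h arrays, and 0.28%, 0.383% and 0.0887% for the mock arrays.

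Genes on both sides of the limits had near-equal values. Just inside the 0.8 limit were RALFL32 (-0.8012), CIP7 (-0.8040) and AT5G02420 (-0.8061), and just outside it were ERS1 (-0.7993), scpl25 (-0.7991) and DWF4 (-0.7981). ERS1 is an ethylene receptor and DWF4 a brassinosteroid synthesis enzyme. At the 1 h limit, RPA (-0.30, just under the limit in size before rounding), GRH1 (-0.2987) and FLA9 (-0.2950) were taken, and AT2G47440 (-0.3012), AT2G37540 (-0.3078) and AT3G47400 (-0.3137) were not. In all, 80 loci met the 4 h limits with a 1 h mean at least 0.3 below mock, and 0 with a 1 h mean that far above it.

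The 10 largest differences at 4 h belonged to 6 loci without a symbol and to RCI3, ATHB13, CYP71B7 and EXPA11. AT1G78020 had log2 levels of 6.44, 6.92 and 6.82 in mock, 6.44, 6.68 and 6.94 at 1 h, and 4.67, 4.67 and 5.73 at 4 h. All 4 h arrays of AT1G78020 were below all 6 others, and its difference at 4 h was -1.70 ± 0.26, 3.26-fold lower than mock. AT5G06270 stood at 8.56, 8.73 and 8.70 in mock, 8.22, 8.41 and 8.66 at 1 h, and 6.76, 6.51 and 7.75 at 4 h. It was 3.15-fold lower at 4 h (-1.66 ± 0.26), again with no overlap with mock or 1 h. AT5G62330 measured 7.88, 8.59 and 8.36 in mock, 8.24, 8.20 and 8.40 at 1 h, and 6.90, 6.11 and 7.05 at 4 h, a difference of -1.59 ± 0.24. Its 1 h mean was within 0.01 of mock, and its 3 arrays at 4 h were all more than 0.8 below the other 6.

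AT2G34080 measured 7.84, 8.41 and 8.31 in mock, 7.34, 8.30 and 8.52 at 1 h, and 6.59, 5.99 and 7.50 at 4 h (difference -1.49 ± 0.37). Its highest 4 h array lay above its lowest 1 h array, so those groups overlapped. AT2G41810 stood at 9.13, 9.59 and 9.59 in mock, 9.06, 9.55 and 9.39 at 1 h, and 7.37, 8.16 and 8.34 at 4 h (-1.48 ± 0.24). AT1G61840 had 6.00, 6.13 and 6.09 in mock, 5.26, 6.14 and 6.32 at 1 h, and 4.29, 4.62 and 5.01 at 4 h (-1.43 ± 0.25). For both of these loci every 4 h array was below every 1 h and mock array.

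**Figure D3:**
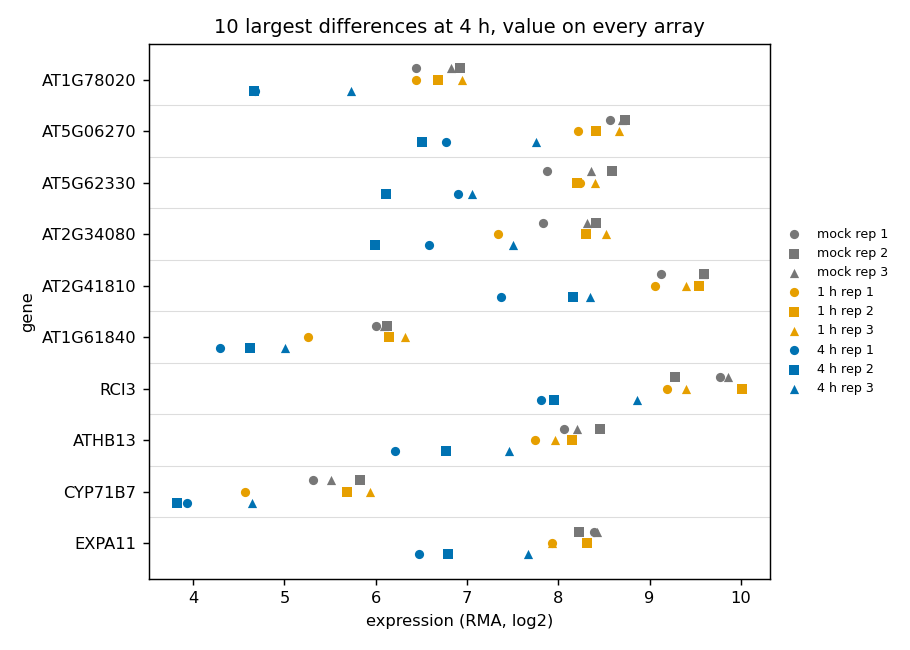
RMA log2 expression (x axis) of the 10 genes with the largest differences at 4 h, on every array; colours are groups and marker shapes are replicates. For each gene the 3 blue 4 h points lie left of the 3 grey mock points, and the rightmost 4 h point is replicate 3 in all 10.

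Among the 63 named genes, 14 encode transcription factors, with differences of -1.43 to -0.81 at 4 h and a median of -1.09. The group included 5 homeodomain-leucine zipper (HD-Zip) factors of class I, a plant family in which a leucine zipper pairs DNA-binding homeodomains. ATHB13 (AT1G69780) had 8.06, 8.46 and 8.21 in mock, 7.75, 8.15 and 7.97 at 1 h, and 6.21, 6.77 and 7.46 at 4 h. Its arrays at 4 h were spread over more than 1 log2 unit but stayed below all others, and the mean was 2.69-fold lower (-1.43 ± 0.25). AtHB23 (AT1G26960), a close relative of ATHB13, had 5.78, 6.27 and 5.85 in mock, 5.63, 5.72 and 5.98 at 1 h, and 4.53, 4.22 and 5.19 at 4 h (-1.32 ± 0.22). HB-3 (AT5G15150) had 7.57, 7.84 and 7.59 in mock, 7.27, 7.42 and 7.43 at 1 h, and 6.21, 6.40 and 7.04 at 4 h (-1.12 ± 0.18). In both, the 4 h arrays lay below every other array.

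HB20 (AT3G01220) differed by -0.88 ± 0.21, with 7.86, 7.91 and 8.01 in mock, 7.80, 7.83 and 7.83 at 1 h, and 6.76, 6.70 and 7.67 at 4 h. Its replicate 3 at 4 h was 0.19 below the lowest mock array and 0.13 below the lowest 1 h array, a narrow separation. HB-1 (AT3G01470) differed by -0.96 ± 0.19, with 7.64, 8.07 and 7.70 in mock, 7.37, 7.63 and 7.73 at 1 h, and 6.61, 6.61 and 7.32 at 4 h. The locus AT3G01472, also among the 125, had the same value as HB-1 on every array, so the probe sets of these loci cannot be told apart, and the 125 genes held 124 distinct sets of values.

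Of 16 class I HD-Zip loci measured, 6 fell at 4 h, 0 rose and 10 did not pass, with a median of -0.41, where 5.23% of all loci were called down. Here and in the families that follow, this 5.23% is the share to set beside the falls. The counts include genes taken for their 4 h level and are no separate support for a direction of the family. The 6 were the 5 above and HB-12, which fell by 0.67 ± 0.16 at 4 h (limma adjusted p = 0.0233) and stood at -0.69 at 1 h. Of the 11 that were not among the 125, 1 fell and the median was -0.18, with HB6 at -0.07 and HB16 at 0.11. The count of 6 was 3 without 4 h replicate 1, 3 without mock replicate 2 and 7 without 4 h replicate 3. None of the 16 was called at 1 h by limma, and 2 had an unadjusted p under 0.05.

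ARF19 (AT1G19220), a transcriptional activator of the auxin response that acts in lateral root formation, had the smallest standard error of the 125. It stood at 5.96, 6.06 and 6.18 in mock, 5.89, 5.98 and 5.86 at 1 h, and 4.83, 4.88 and 4.87 at 4 h. The 4 h arrays of ARF19 were almost equal and at least 1.08 below every mock array, and the difference was -1.21 ± 0.08, 2.31-fold lower. MYBC1 (AT2G40970), a MYB-type factor, was likewise even, with 7.40, 7.54 and 7.44 in mock, 7.27, 7.19 and 7.21 at 1 h, and 6.19, 6.30 and 6.60 at 4 h (-1.10 ± 0.11). WRKY9 (AT1G68150) had 8.61, 8.78 and 8.66 in mock, 8.33, 8.56 and 8.57 at 1 h, and 7.38, 7.30 and 7.99 at 4 h (-1.13 ± 0.16).

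Several of the other factors are known from cell growth and cell shape. ZFP5 (AT1G10480), a zinc finger protein that promotes trichome and root hair formation, had 7.65, 7.89 and 7.61 in mock, 7.05, 7.68 and 7.69 at 1 h, and 6.75, 6.28 and 6.85 at 4 h (-1.09 ± 0.19). GTL1 (AT1G33240), a trihelix factor that limits trichome and root hair growth, had 8.47, 8.66 and 8.53 in mock, 8.00, 8.38 and 8.40 at 1 h, and 7.20, 7.58 and 8.04 at 4 h (-0.95 ± 0.19). The 4 h and 1 h arrays of GTL1 overlapped by 0.04, the only such case among the 14. IBL1 (AT4G30410) and PAR1 (AT2G42870) encode atypical basic helix-loop-helix proteins that restrain cell elongation. IBL1 had 7.51, 7.91 and 7.68 in mock, 7.45, 7.89 and 7.64 at 1 h, and 6.25, 6.29 and 7.30 at 4 h (-1.09 ± 0.25). PAR1 had 6.66, 6.81 and 6.75 in mock, 6.30, 6.50 and 6.57 at 1 h, and 6.25, 5.46 and 6.03 at 4 h (-0.83 ± 0.17). These genes thus included known promoters and known inhibitors of growth. All were lower at 4 h because the choice required it.

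DOF6 (AT3G45610), a Dof zinc finger protein, was the only transcription factor of the group with its lowest 4 h array in replicate 3. Its values were 6.55, 6.98 and 6.64 in mock, 6.85, 6.82 and 6.56 at 1 h, and 5.79, 6.12 and 5.61 at 4 h (-0.88 ± 0.15). MYB61 (AT1G09540), known from seed mucilage and xylem, had 4.15, 4.64 and 4.22 in mock, 4.21, 4.48 and 4.79 at 1 h, and 3.21, 3.71 and 3.66 at 4 h (-0.81 ± 0.19). It was the only 1 of the 125 whose 4 h mean lay below the highest first quartile of the arrays (3.63), and it had the highest 1 h difference of the 125, at 0.16.

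**Figure D4:**
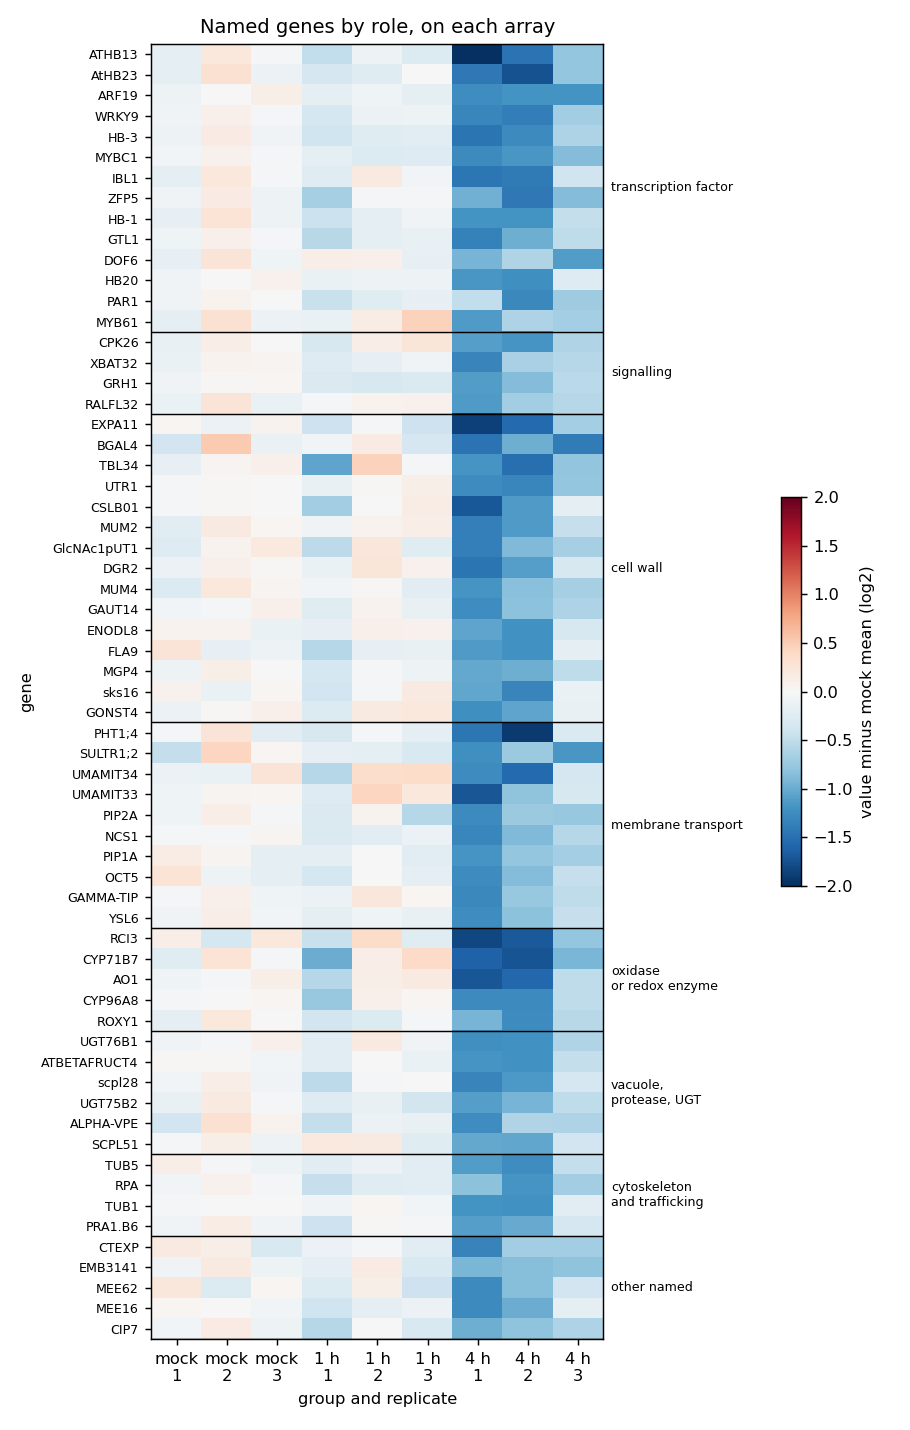
Heat map of the 63 named genes grouped by role (rows) on the 9 arrays (columns), coloured by the log2 value minus the gene's mock mean. The 4 h columns are blue throughout, palest in replicate 3, and in the first 1 h column TBL34 reaches -1.06.

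Signalling genes numbered 4, with differences of -0.96 to -0.80, and in each the 4 h arrays lay below all 1 h and mock arrays. The choice required this for mock, and against 1 h it held for 86 of the 125 and 10.1% of all loci. GRH1 (AT4G03190), the auxin receptor F-box protein also known as AFB1, is the first of the 4 genes. It had 10.63, 10.73 and 10.74 in mock, 10.41, 10.38 and 10.41 at 1 h, and 9.59, 9.84 and 10.16 at 4 h. Its 1 h arrays were already all below mock (mean difference -0.30), and at 4 h the difference was -0.84 ± 0.13. Receptors of the TIR1/AFB family bind auxin and mark Aux/IAA repressors for breakdown. Of 6 measured, 3 fell at 4 h, 0 rose and 3 did not pass, against 5.23% of all loci called down. Besides GRH1 these were AFB3 (-0.45 ± 0.10, limma adjusted p = 0.0169) and AFB2 (-0.44 ± 0.11, limma adjusted p = 0.033), while TIR1 stood at -0.07 ± 0.17. The count of 3 was 1 without mock replicate 2 or mock replicate 3.

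CPK26 (AT4G38230), a calcium-dependent protein kinase, had 5.71, 5.98 and 5.86 in mock, 5.52, 5.98 and 6.09 at 1 h, and 4.74, 4.68 and 5.25 at 4 h (-0.96 ± 0.18). XBAT32 (AT5G57740), a ubiquitin ligase that limits ethylene synthesis and acts in lateral root formation, had 6.01, 6.21 and 6.19 in mock, 5.88, 5.97 and 6.06 at 1 h, and 4.82, 5.48 and 5.57 at 4 h (-0.85 ± 0.17). RALFL32 (AT4G14010), a peptide of the RALF family, had 6.34, 6.72 and 6.34 in mock, 6.42, 6.53 and 6.55 at 1 h, and 5.34, 5.77 and 5.89 at 4 h (-0.80 ± 0.15). CPK26 and RALFL32 were at the mock level at 1 h, with differences of 0.01 and 0.03. Of 18 measured RALF peptides, 2 fell at 4 h, RALFL32 and RALFL31 (-0.55 ± 0.13, limma adjusted p = 0.0252), 0 rose and 16 did not pass. That count was 1 without any 1 of the mock arrays, 4 h replicate 1 or 4 h replicate 2.

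Cell wall genes were the largest named group, with 15 members and differences of -1.37 to -0.81 (median -0.96). EXPA11 (AT1G20190), an expansin, a protein that loosens walls, had 8.39, 8.23 and 8.43 in mock, 7.93, 8.32 and 7.93 at 1 h, and 6.48, 6.79 and 7.67 at 4 h. All 4 h arrays of EXPA11 were below the others and the mean was 2.59-fold lower than mock (-1.37 ± 0.25).

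Pectin genes were represented at several steps. MUM4 (AT1G53500), a rhamnose synthase that makes the sugar donor for pectin, had 8.85, 9.34 and 9.18 in mock, 9.06, 9.15 and 8.90 at 1 h, and 7.94, 8.29 and 8.45 at 4 h (-0.89 ± 0.15). GAUT14 (AT5G15470), of the galacturonosyltransferases that build the pectin backbone, had 8.00, 8.02 and 8.15 in mock, 7.81, 8.13 and 7.91 at 1 h, and 6.82, 7.24 and 7.45 at 4 h (-0.89 ± 0.15). MGP4 (AT4G01220), a xylosyltransferase of rhamnogalacturonan II, had 7.60, 7.82 and 7.70 in mock, 7.36, 7.67 and 7.60 at 1 h, and 6.68, 6.73 and 7.20 at 4 h (-0.84 ± 0.14). These 3 had no overlap of the 4 h arrays with any other, which the choice required for mock and which 86 of the 125 showed against 1 h.

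The families of MUM4 and GAUT14 also had called members outside the 125. All 3 rhamnose synthases fell at 4 h, against 5.23% of all loci called down, and MUM4 was taken for its fall. RHM1 fell by 0.73 ± 0.18 (limma adjusted p = 0.0319) and RHM3 fell by 0.67 ± 0.08 (limma adjusted p = 0.00212). RHM3 was even across arrays, at 9.12 to 9.17 in mock and 8.41, 8.41 and 8.59 at 4 h. Of 14 galacturonosyltransferases, 4 fell (3 of 13 outside the 125), 0 rose and 10 did not pass, with a median of -0.35. The 4 were GAUT14, GAUT11 (-0.67 ± 0.19), GAUT13 (-0.64 ± 0.16) and GAUT1 (-0.48 ± 0.12). That count was 1 without 4 h replicate 1, mock replicate 2 or mock replicate 3, 2 without mock replicate 1 or 4 h replicate 2, and 9 without 4 h replicate 3. The count of rhamnose synthases was 2 or 3 without any 1 array.

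MUM2 (AT5G63800) and BGAL4 (AT5G56870) encode beta-galactosidases, which trim galactose from wall polymers. MUM2, known from seed mucilage, had 9.15, 9.53 and 9.40 in mock, 9.28, 9.43 and 9.49 at 1 h, and 7.99, 8.22 and 8.90 at 4 h (-0.99 ± 0.20). BGAL4 had 7.35, 8.26 and 7.60 in mock, 7.67, 7.89 and 7.40 at 1 h, and 6.25, 6.76 and 6.33 at 4 h (-1.29 ± 0.22). BGAL4 differs from most of the genes in that replicate 2, not replicate 3, was its highest 4 h array. Of 16 measured beta-galactosidases, 4 fell at 4 h, 0 rose and 12 did not pass, with a median of -0.14. Those outside the 125 were BGAL12 (-0.99 ± 0.15, limma adjusted p = 0.00569), which had stood at -0.52 at 1 h, and BGAL3 (-0.36 ± 0.09, limma adjusted p = 0.0258). The count of 4 was 2 without mock replicate 2, mock replicate 3 or 4 h replicate 2.

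Nucleotide sugars are sugar donors, and 3 genes of their making or transport were counted in the group. Whether these 3 serve wall polymers was not tested. UTR1 (AT2G02810), a UDP-sugar transporter, had 8.27, 8.32 and 8.28 in mock, 8.14, 8.32 and 8.41 at 1 h, and 7.03, 6.98 and 7.51 at 4 h, a difference of -1.12 ± 0.14 with 1 h at the mock level. GlcNAc1pUT1 (AT1G31070), which makes UDP-N-acetylglucosamine, had 5.77, 6.10 and 6.22 in mock, 5.50, 6.26 and 5.78 at 1 h, and 4.67, 5.14 and 5.37 at 4 h (-0.97 ± 0.22). GONST4 (AT5G19980), a nucleotide sugar transporter of the Golgi, had 8.99, 9.12 and 9.20 in mock, 8.83, 9.28 and 9.32 at 1 h, and 7.88, 8.06 and 8.96 at 4 h (-0.81 ± 0.24). Replicate 3 of GONST4 at 4 h was only 0.04 below its lowest mock array.

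Further wall genes were CSLB01 (-1.01 ± 0.32), a cellulose synthase-like protein, the fasciclin-like protein FLA9 (-0.84 ± 0.25) and sks16 (-0.83 ± 0.26), of the multicopper oxidase-like SKU5 family. In CSLB01 the 4 h arrays were 6.76, 7.32 and 8.26 against 8.42 to 8.48 in mock. sks16 had the narrowest gap of the 125: its highest 4 h array (9.31) lay 0.003 below its lowest mock array (9.32). limma called 0 of 18 measured SKU5-similar genes at 4 h (5 had an unadjusted p under 0.05) and 5 without 4 h replicate 3. Among 17 fasciclin-like genes 2 fell, FLA18 (-0.56 ± 0.14) and FLA7 (-0.44 ± 0.12), a count that was 0 without 4 h replicate 1, 4 h replicate 2 or any 1 mock array, 1 without 1 h replicate 2 or 1 h replicate 3, and 4 without 4 h replicate 3.

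TBL34 (AT2G38320), which acetylates xylan, had 4.94, 5.16 and 5.21 in mock, 4.04, 5.56 and 5.08 at 1 h, and 3.93, 3.59 and 4.31 at 4 h (-1.16 ± 0.32). Its 1 h replicate 1 lay within the range of its 4 h arrays, and the other 1 h arrays were near mock. Of 34 measured genes of this acetyltransferase family 4 fell, 1 rose and 29 did not pass; the 4 falls were 1 or 2 without any single array other than 1 h replicate 1 and 4 h replicate 3, and 7 without the latter. DGR2 (AT5G25460), a wall protein, had 10.52, 10.74 and 10.65 in mock, 10.50, 10.88 and 10.72 at 1 h, and 9.17, 9.54 and 10.31 at 4 h (-0.96 ± 0.23). The early nodulin-like protein ENODL8 differed by -0.86 ± 0.20.

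Membrane transport was the role of 10 genes, with differences of -1.21 to -0.84. SULTR1;2 (AT1G78000), a high-affinity sulfate transporter of root uptake, had 10.03, 10.93 and 10.55 in mock, 10.35, 10.31 and 10.20 at 1 h, and 9.27, 9.75 and 9.34 at 4 h (-1.05 ± 0.20). Its mock arrays were widely spread, and all 4 h arrays were below them and below the 1 h arrays. PHT1;4 (AT2G38940), a phosphate transporter, had 5.06, 5.37 and 4.89 in mock, 4.78, 5.06 and 4.92 at 1 h, and 3.66, 3.19 and 4.82 at 4 h (-1.21 ± 0.32). Replicate 3 of PHT1;4 at 4 h lay 0.07 below its lowest mock array, and replicates 1 and 2 were far below. Of 12 measured SULTR genes, 2 fell, SULTR1;2 and SULTR4;2 (-0.78 ± 0.20, limma adjusted p = 0.032), a count that was 1 without any 1 of mock replicates 2 and 3, 1 h replicate 2, and 4 h replicates 2 and 3. Of 6 PHT1 genes only PHT1;4 passed, and it did not when any 1 array other than 4 h replicate 3 was left out.

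Aquaporins, which carry water through membranes, contributed 3 genes. PIP2A (AT3G53420), a plasma membrane aquaporin, had 9.76, 9.98 and 9.81 in mock, 9.56, 9.93 and 9.29 at 1 h, and 8.58, 9.10 and 9.10 at 4 h (-0.93 ± 0.18). PIP1A (AT3G61430), also of the plasma membrane, had 8.32, 8.22 and 7.97 in mock, 7.99, 8.17 and 7.95 at 1 h, and 6.99, 7.41 and 7.49 at 4 h (-0.88 ± 0.14). GAMMA-TIP (AT2G36830), of the vacuole membrane, had 8.96, 9.08 and 8.89 in mock, 8.85, 9.20 and 9.01 at 1 h, and 7.69, 8.22 and 8.47 at 4 h (-0.85 ± 0.17). None of the 3 overlapped between 4 h and either other group, as the choice required for mock and as held for 86 of the 125 against 1 h. Of 18 measured PIP and TIP aquaporins, 4 fell, 0 rose and 14 did not pass, with a median of -0.32. The fourth was PIP1B (-0.34 ± 0.09, limma adjusted p = 0.031), and TIP4;1 stood at -0.91 ± 0.33 without passing. The count was 1 without mock replicate 2 and 7 without 4 h replicate 3.

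UMAMIT34 (-1.04 ± 0.32) and UMAMIT33 (-0.95 ± 0.29), of a family of amino acid exporters, had wide errors. Both had a 1 h mean above mock, by 0.05 and 0.12, and UMAMIT33 had 7.33, 7.46 and 7.45 in mock and 5.70, 6.61 and 7.09 at 4 h. Of 37 UMAMIT genes measured, 3 rose, 2 fell and 32 did not pass, with a median of -0.01. Those called in the family thus went both ways. The 2 that fell were UMAMIT6 (-0.67 ± 0.12) and WAT1 (-0.59 ± 0.15), while UMAMIT34 and UMAMIT33 were among the 32 that did not pass. The falls were 6 without 4 h replicate 3 and 1 without 1 h replicate 3, 4 h replicate 1, 4 h replicate 2 or any 1 mock array. The remaining transporters were the nucleobase transporter NCS1 (-0.92 ± 0.15), the organic cation transporter OCT5 (-0.86 ± 0.19) and the metal chelate transporter YSL6 (-0.84 ± 0.16).

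**Figure D5:**
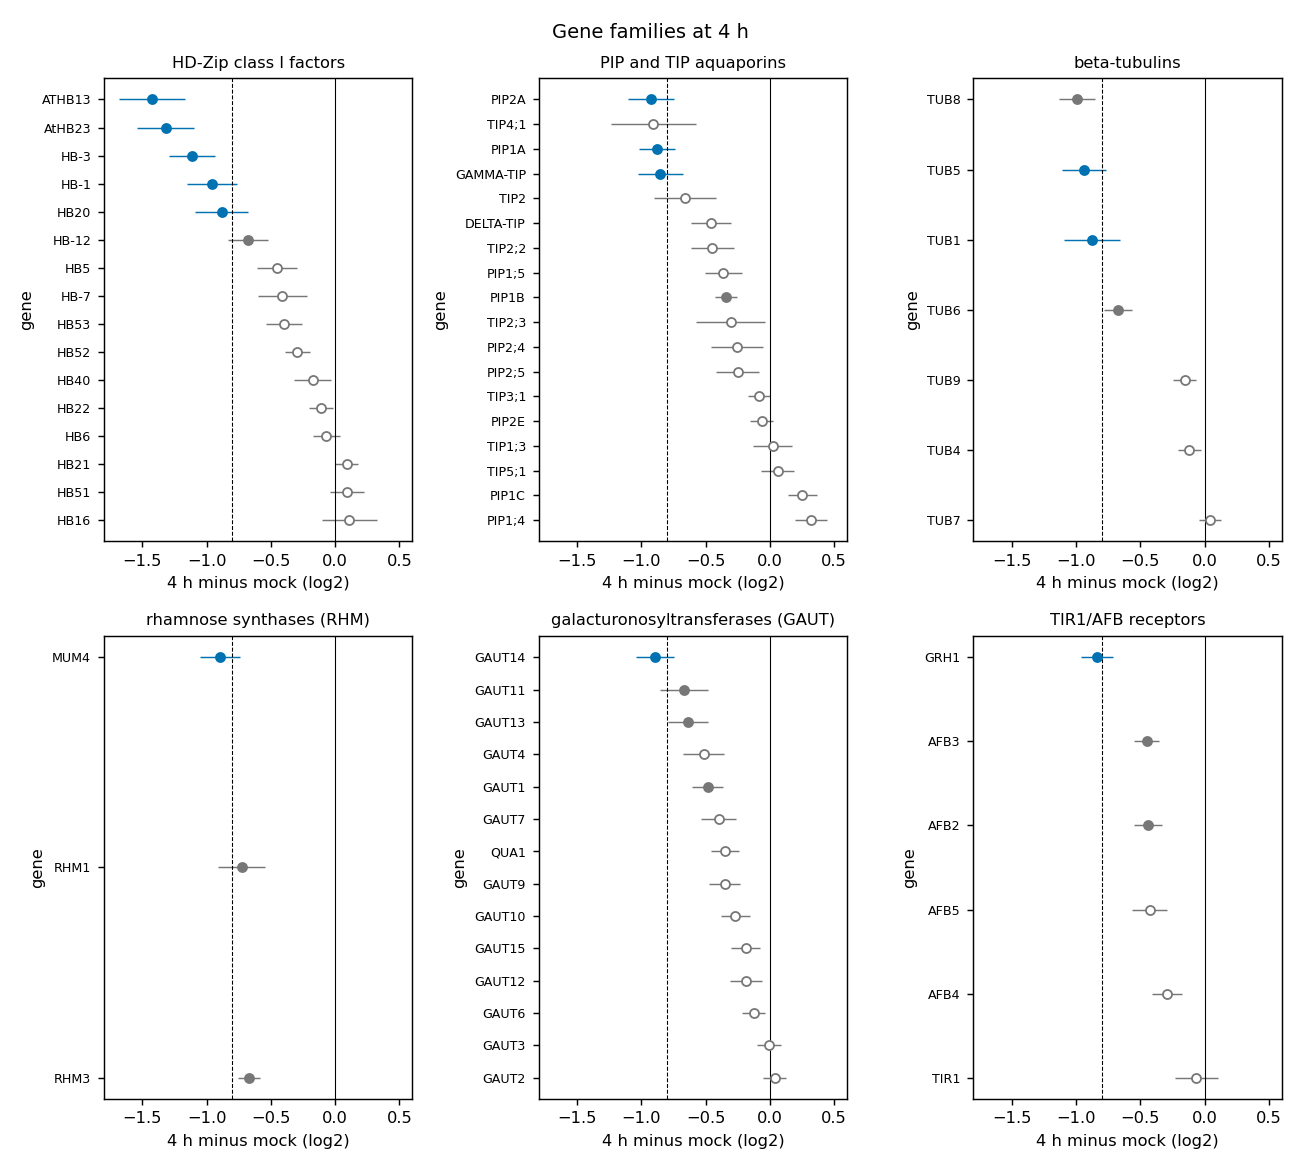
The 4 h minus mock difference (x axis, log2, bars ± 1 standard error of the limma model) of every measured gene of 6 families. Blue points are among the 125, grey points are not, and filled points passed an adjusted p of 0.05; the dashed line marks -0.8. Filled are 3 of 3 rhamnose synthases, 6 of 16 class I HD-Zip factors and 4 of 7 beta-tubulins, of which 1, 5 and 2 are among the 125; of all loci, 5.23% were called down.

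Oxidases and redox enzymes numbered 5, with differences of -1.43 to -0.92 (median -1.26), the lowest median of the named roles. RCI3 (AT1G05260), a secreted class III peroxidase, had 9.77, 9.28 and 9.86 in mock, 9.19, 10.01 and 9.40 at 1 h, and 7.81, 7.96 and 8.87 at 4 h (-1.43 ± 0.29). CYP71B7 (AT1G13110), a cytochrome P450, had 5.31, 5.83 and 5.51 in mock, 4.56, 5.69 and 5.94 at 1 h, and 3.94, 3.83 and 4.64 at 4 h (-1.41 ± 0.33). AO1 (AT4G14940), a copper amine oxidase that makes hydrogen peroxide from polyamines, had 6.11, 6.16 and 6.32 in mock, 5.62, 6.31 and 6.37 at 1 h, and 4.48, 4.63 and 5.68 at 4 h (-1.26 ± 0.29). In CYP71B7 and AO1 the lowest 1 h array, replicate 1, lay below the highest 4 h array, replicate 3, and in RCI3 the groups were separate.

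CYP96A8, a further cytochrome P450, differed by -1.02 ± 0.25 and the glutaredoxin ROXY1 by -0.92 ± 0.17. Of 204 cytochromes P450 measured, 14 rose, 8 fell and 182 did not pass, with a median of -0.01. The 8 falls were 5 without 4 h replicate 1, 4 h replicate 2 or mock replicate 1, 4 without mock replicate 3, 2 without mock replicate 2 and 18 without 4 h replicate 3.

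Proteins of the vacuole, proteases and glycosyltransferases were 6, with differences of -1.02 to -0.82. ATBETAFRUCT4 (AT1G12240), a vacuolar invertase that splits sucrose, had 8.12, 8.12 and 8.04 in mock, 7.87, 8.08 and 7.96 at 1 h, and 6.92, 6.88 and 7.62 at 4 h (-0.95 ± 0.17). UGT76B1 (AT3G11340), which glucosylates salicylic acid, had 8.44, 8.49 and 8.61 in mock, 8.31, 8.70 and 8.45 at 1 h, and 7.28, 7.30 and 7.91 at 4 h (-1.02 ± 0.16). ALPHA-VPE (AT2G25940), a vacuolar processing protease, had 6.25, 6.92 and 6.70 in mock, 6.15, 6.51 and 6.48 at 1 h, and 5.38, 6.02 and 6.01 at 4 h (-0.82 ± 0.21). In these 3 genes all 4 h arrays lay below all others, as the choice required for mock and as held for 86 of the 125 against 1 h. The glycosyltransferase UGT75B2 differed by -0.85 ± 0.15, and the carboxypeptidase-like scpl28 by -0.94 ± 0.23 and SCPL51 by -0.82 ± 0.18. Of 59 UGT genes 2 rose and 3 fell, and of 42 carboxypeptidase-like genes 2 rose and 6 fell, with medians of -0.04 and 0.02. Leaving out 4 h replicate 3 gave 10 falls among the UGT genes, and leaving out single arrays gave 1 (without 4 h replicate 2 or any 1 mock array), 2 (without 4 h replicate 1) or up to 9 (without 4 h replicate 3) falls among the carboxypeptidase-like genes.

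Of the 4 genes of cytoskeleton and trafficking, TUB1 and TUB5 encode beta-tubulins, a subunit of microtubules. TUB5 (AT1G20010) had 9.93, 9.76 and 9.69 in mock, 9.56, 9.67 and 9.56 at 1 h, and 8.67, 8.55 and 9.32 at 4 h (-0.94 ± 0.17). TUB1 (AT1G75780) had 9.89, 9.93 and 9.93 in mock, 9.85, 9.95 and 9.86 at 1 h, and 8.73, 8.70 and 9.70 at 4 h (-0.88 ± 0.22). TUB1 was even across mock and far lower on 4 h replicates 1 and 2, but close to mock on replicate 3. Of 7 beta-tubulins measured, 4 fell and 3 did not pass, against 5.23% of all loci called down. Of the 5 outside the 125, 2 fell and the median was -0.16. TUB8 fell by 0.99 ± 0.14 (limma adjusted p = 0.00393), and its 1 h difference of -0.31 kept it out of the 125. TUB6 fell by 0.68 ± 0.11 (limma adjusted p = 0.00688), while TUB9 stood at -0.16, TUB4 at -0.12 and TUB7 at 0.04. A difference between the called and the other beta-tubulins was not tested, and 3 or 4 of the 7 were called without any 1 array. RPA (AT2G35210), an ARF GTPase-activating protein of roots and pollen, differed by -0.89 ± 0.13, and PRA1.B6, a Rab acceptor, by -0.81 ± 0.19.

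The other 5 named genes were CTEXP (-0.91 ± 0.18), EMB3141 (-0.86 ± 0.13), MEE62 (-0.84 ± 0.22), MEE16 (-0.82 ± 0.22) and CIP7 (-0.80 ± 0.15), a protein that binds the light regulator COP1. EMB3141 (AT5G50390) was even, with 5.59, 5.84 and 5.56 in mock, 5.48, 5.83 and 5.36 at 1 h, and 4.76, 4.81 and 4.86 at 4 h. The 62 loci without a symbol had differences of -1.70 to -0.81 (median -0.98). AT4G30170 had 10.73, 11.03 and 10.91 in mock, 10.46, 10.88 and 10.80 at 1 h, and 9.17, 9.47 and 10.19 at 4 h. The 11 of the 125 that were not called at 4 h against mock were AT5G11420, AT2G28200, AT2G17080, AT1G77640, AT2G02630, the wall genes CSLB01, FLA9, sks16 and GONST4, and both UMAMIT genes.

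Mock means of the 125 genes ran from 4.34 to 10.9 log2 units of array signal, which does not rank abundance between genes. Their arrays differed more among themselves at 4 h: the median SD of the 125 over mock, 1 h and 4 h arrays was 0.128, 0.198 and 0.427, and the SD at 4 h exceeded that in mock for 119 of 125, compared with 66.5% of all loci. The gap from the lowest mock array to the highest 4 h array was 0.003 to 1.08 with a median of 0.40. It was under 0.1 for 7 genes (PHT1;4, AT5G11420, AT1G76470, AT1G49030, FLA9, sks16 and GONST4) and 0.5 or more for 37.

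They lay on all 5 nuclear chromosomes, with 35, 25, 17, 19 and 29 genes on chromosomes 1 to 5. These are 28.0%, 20.0%, 13.6%, 15.2% and 23.2% of the 125, compared with 25.8%, 16.3%, 19.9%, 14.8% and 22.9% of all loci. There were 2 pairs of direct neighbours in the gene table, AT2G17070 with AT2G17080 and IBL1 with UMAMIT34. AT2G17070 stood at -1.14 and AT2G17080 at -0.92. Another pair, SULTR1;2 and AT1G78020, had 1 gene between them.

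Lists of stress and nutrient genes were examined beside the 125. Of 13 sugar starvation genes, BGAL4 was called down and 12 did not pass, with DIN6 at 0.10 and TPS11 at 0.61 ± 0.36 and a list median of 0.11. Of 10 abscisic acid response genes limma called 0 and 2 had an unadjusted p under 0.05 (median 0.04); without 4 h replicate 3 it called 1 down. Of 7 wound and touch genes limma called 0 and 2 had an unadjusted p under 0.05 (median -0.25; 1 called down without 4 h replicate 3). Among 5 ethylene response genes ERS1 fell by 0.80 ± 0.14 (limma adjusted p = 0.00915), and among 5 nitrate genes the nitrate reductase NIA2 fell by 0.62 ± 0.17 (limma adjusted p = 0.0391), the count of 1 in the nitrate list being 0 without any single array other than 4 h replicate 3 and 2 without that array.

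Markers of root cell types other than the QC moved in part with the 125 genes. Of 45 measured markers, 9 fell at 4 h, FEZ (0.97 ± 0.24) rose and 35 did not pass, with a median of -0.27, against 5.23% of all loci called down. Summed on the linear scale, they gave 6004 to 7183 on the mock arrays, 5605 to 6754 on the 1 h arrays and 4699 to 5786 on the 4 h arrays. The summed 4 h arrays reached into the 1 h range and lay below all mock arrays. Root cap markers weighed most in this sum, with 3873 to 4920 on the mock arrays and 3055 to 3835 on the 4 h arrays. The QC and niche genes went the other way, with sums of 3398 to 3514 on the mock arrays and 3964 to 4555 on the 4 h arrays. At 1 h their sums were 3894 to 3960, already above all mock arrays. Without 4 h replicate 1, 3 of the 45 markers were called down and 0 up. The number down was 2 without mock replicate 2, 4 without mock replicate 3 or 1 h replicate 2, 5 without 4 h replicate 2 or 1 h replicate 3, and 15 without 4 h replicate 3. By cell type, falls were counted for 0 of 8 root cap, 2 of 11 epidermis and root hair, 2 of 10 endodermis, 1 of 2 cortex and 4 of 14 vascular markers. The root cap list had 6 of 8 at an unadjusted p under 0.05 and a median of -0.38. Leaving out single arrays gave 0 to 4 falls for root cap (2 without mock replicate 1, 4 without 4 h replicate 3), 0 to 3 for epidermis and root hair (0 without mock replicate 2, 3 without 4 h replicate 3, 1 without any other array) and 1 for cortex. It gave 0 for endodermis without any single array other than 4 h replicate 2 (1) and 4 h replicate 3 (3), and 1 to 4 for vascular markers (1 without 4 h replicate 1 or mock replicate 2, 2 without mock replicate 1, mock replicate 3, 1 h replicate 2 or 4 h replicate 2). The root hair regulator RHD6, 1 of the 11 loci left out of the choice, fell by 0.81 ± 0.16, and the cortex marker AT1G09750 fell by 1.09 ± 0.14. In mock, 6 markers lay below the first quartile of the arrays, namely EXPA7, AT1G62500, VND6, VND7, CVP2 and AHP6. Of 8 measured QC and niche genes, TMO7 rose by 0.53 ± 0.10, 7 did not pass and the median was 0.05. The part of other cell types in the values of the 125 genes was not tested.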

How the data were processed

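Arrays of 9 sorted-cell samples were analysed. Per the submitters' processing notes the authors used RMA, and the deposited table holds the resulting log2 values; limma 3.24.15 is named there too. Array type, probe set definition and genome build: not given in the sources used here. Left out were 64 control probe sets, which leaves 21430 loci, of which 221 shared all values with another locus; values of close paralogs are uncertain. Symbols came from a RefSeq gene table (TAIR10.1) that held 21231 of the loci; no coordinates were used.

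No further normalization or filter was applied. One limma 3.58.1 model (lmFit, eBayes; R 4.3.3) over all 9 arrays, with 6 residual and 4.47 prior degrees of freedom, gave 3 two-sided contrasts, Benjamini-Hochberg adjusted over all loci; a locus was called at an adjusted p under 0.05. Errors after ± are standard errors of this model, n = 3 arrays a group, and p-values measure the spread among these arrays; their number limits the precision. The procedure was tested on simulated data. Python 3.11.15 and pandas 2.3.3 did the rest.

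The members, roles and lists were chosen with earlier results of these data known. Array values are given for the 10 largest differences and for genes with a known role. The gene table held no product descriptions, so families were taken by symbol or synonym, and class I HD-Zip genes from a written list of loci. Promoter motifs were not searched. Same-numbered arrays correlated at -0.13 to 0.27 in their deviations from group means, so the numbers were not taken to pair the samples. Alternatives were quantile normalization, median centring, leaving out dim probe sets (below the 40th percentile), eBayes with trend and robust settings, weights per array, a fit of just the 2 groups compared, the replicate block and each array left out; counting identical rows once and the family counts with single arrays left out were added after seeing the data.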

Additional observations from a re-analysis of the deposited data

How the results depend on the processing

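The choice of genes gave 125 loci as reported, 126 after quantile normalization, 129 with arrays centred on their medians, 124 with identical rows counted once, and 72 to 341 when single arrays were left out. Of the 125, limma called 114 at 4 h against mock. The alternatives with all arrays gave 82 (only the 2 groups compared, 4.98% of all loci called) to 125 (array weights, 14.5%). Leaving out single arrays gave 50 (3.21%) to 125 (19.4%). At 1 h against mock limma called 0 of the 125 in every alternative, with 0 to 19 at an unadjusted p under 0.05. At 4 h against 1 h it called 45 (1.85% of all loci), which became 119 with array weights (7.93%) and 1 with only the 2 groups compared (0.0187%). The count was 1 (0.014%) to 120 (13.1%) without single arrays. Quantile normalization, centring, leaving out dim probe sets, and trend and robust eBayes gave 42 to 57. With the replicate number as a block, which these data do not show to pair the arrays, the counts were 123 at 4 h against mock, 0 at 1 h against mock and 61 at 4 h against 1 h. The difference at 4 h of 69 genes (the 63 with a symbol and 6 of the 10 largest differences, which have none), recomputed as 552 values under normalization and left-out arrays, lay between -2.06 and -0.57. Of these values, 0 changed sign and 0 moved by more than the spread between replicates. The choice put every 4 h array below every mock array, so leaving out an array could not change a sign. Leaving out 1 of 3 arrays also shifts a mean by less than the SD of its group. These counts of 0 are therefore no separate support. The cause of the movements in the counts was not tested. Limits: 3 arrays a group, no 4 h mock, no dexamethasone control without PLT2-GR, and 4 h arrays of unequal size of difference.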
